A study of Mus musculus with 12 samples.

Results

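The genes described here are *Fas*, *Tnfrsf1a*, *Tnfrsf10b*, *Tnfrsf22*, *Tnfrsf23*, *Tradd*, *Fadd*, *Ripk1*, *Ripk3* and *Mlkl*, the death and decoy receptors, adaptors and necroptosis genes of the tumor necrosis factor (TNF) family pathway. They were chosen by symbol from the array annotation, and the brightest transcript cluster (the set of probes that is summarised to 1 value) with that single symbol stood for each gene. Of the 10 genes, 9 had such a cluster, out of 22180 genes named in this way, and each of the 9 had 1 cluster only. No cluster of the annotation used here was named for *Ripk1*, so *Ripk1* was not analysed here.

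Expression was measured in crypt-enriched tissue, called crypts below, with 1 Affymetrix whole-transcript array per mouse. The tissue was laser-microdissected from frozen sections of the proximal small intestine. The 6 Zfp148gt/+APCMin/+ mice carry 1 gene-trap allele of *Zfp148*, a zinc finger transcription factor that binds GC-rich DNA, in all their cells, and the 6 Zfp148+/+APCMin/+ mice are the controls. All 12 mice carry 1 Min allele of *Apc*, which predisposes the intestine to adenomas, are on a mixed genetic background and were described as 12 weeks old. The controls were littermates, but the sources used here do not say which mice share a litter. The comparison asks whether the loss of 1 copy of *Zfp148* goes with a change in gene expression in normal crypts.

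Death receptors are TNF family receptors with a cytoplasmic death domain. FAS and the TRAIL receptor TNFRSF10B recruit the adaptor FADD and, through it, caspase-8, while TNFRSF1A recruits TRADD and the kinase RIPK1, which signal to NF-κB or, in another complex, to caspase-8. Where caspase-8 is inactive, RIPK1 and RIPK3 assemble through shared motifs and RIPK3 phosphorylates MLKL, which permeabilises the plasma membrane (necroptosis). In the mouse intestine, loss of caspase-8 or FADD from the epithelium is known to cause death of Paneth and other epithelial cells through RIPK3, and *Fas* and *Tnfrsf10b* are known p53 target genes. TNFRSF22 and TNFRSF23 are mouse decoy receptors that bind TRAIL and lack a death domain.

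Because ZFP148 binds GC-rich DNA, promoters of these genes were searched for a GC box, and 3 of them are shown, 1 with a single match, 1 with several and 1 with none. The RefSeq promoter table of GRCm38.p6, with 250 bases before and 50 after a transcription start, held 8 promoters of 7 of the 10 genes. *Tradd*, *Tnfrsf10b* and *Tnfrsf22* had no entry. Each line runs 5′ to 3′ on the strand of the gene, and capitals mark a match to a searched motif. The windows are chr7:143685826-143686125 on the minus strand for *Tnfrsf23*, chr19:34290409-34290708 on the plus strand for *Fas* and chr8:111338156-111338455 on the minus strand for *Mlkl*.
Tnfrsf23: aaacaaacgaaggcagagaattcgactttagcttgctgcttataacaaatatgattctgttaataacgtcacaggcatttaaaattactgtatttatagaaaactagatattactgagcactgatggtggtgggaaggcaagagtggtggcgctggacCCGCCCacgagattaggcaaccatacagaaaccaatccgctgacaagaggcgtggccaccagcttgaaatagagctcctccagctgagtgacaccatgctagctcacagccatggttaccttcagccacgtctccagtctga
Fas: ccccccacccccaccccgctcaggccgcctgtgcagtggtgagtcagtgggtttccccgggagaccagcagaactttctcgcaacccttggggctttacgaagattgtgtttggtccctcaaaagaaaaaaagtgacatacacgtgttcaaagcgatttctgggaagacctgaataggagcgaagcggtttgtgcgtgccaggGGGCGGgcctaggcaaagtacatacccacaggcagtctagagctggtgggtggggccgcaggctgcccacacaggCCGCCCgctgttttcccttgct
Mlkl: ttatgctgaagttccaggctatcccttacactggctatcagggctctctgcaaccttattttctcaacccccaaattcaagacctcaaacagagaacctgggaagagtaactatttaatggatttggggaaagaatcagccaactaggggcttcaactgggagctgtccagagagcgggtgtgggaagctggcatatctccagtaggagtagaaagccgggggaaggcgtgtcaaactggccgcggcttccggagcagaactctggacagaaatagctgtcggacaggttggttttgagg

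The GC box (GGGCGG, either strand) occurred in 35.7% of all 32851 promoters of that table. It was matched once in the *Tnfrsf23* promoter, which appears in capitals as its reverse complement, 2 times in the *Fas* promoter, 2 times in that of *Fadd*, 1 time in that of *Ripk3* and not in those of *Mlkl* and *Tnfrsf1a*. The 2 *Ripk1* promoters held 3 and 4 matches. The interferon-stimulated response element (GAAANNGAAA, in 3.44% of all promoters) was matched in 1 of the *Ripk1* promoters alone among the 8. The p53 half-site and the NF-κB site, searched by their usual consensus and found in 8.36% and 4.51% of all promoters, were matched in none of the 8. A match of these letters is a description of the window and no measure of binding.

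*Zfp148* itself, the gene that differs between the groups, served as check of the labels. Its log2 signal was 5.01 to 5.95 in the 6 Zfp148gt/+APCMin/+ mice and 6.06 to 6.88 in the 6 controls, with no overlap. The difference of -0.88 had a limma p of 0.000335 before adjustment and 0.676 after (exact permutation p = 0.0022). The adjusted test thus did not call *Zfp148* either, and a gene that misses that test is not shown to be unchanged. The position of the *Zfp148* probes relative to the trap was not known here. All 11 epithelial markers (such as *Epcam* and *Vil1*) were above the level of odorant receptor probes, with a mean log2 signal of 9.27 to 9.64 in Zfp148gt/+APCMin/+ mice and 9.41 to 9.66 in controls. The 10 crypt base and stem cell markers averaged 6.60 to 7.05 and 6.55 to 7.15, and the 7 measured Paneth cell markers 10.71 to 11.63 and 10.83 to 11.37. Villus enterocyte markers, 13 of them measured, averaged 5.41 to 6.61 and 5.58 to 6.70, so the tissue was not crypt base alone. Averages of the 8 goblet cell markers were 10.53 to 11.07 and 10.67 to 10.99. Stromal and immune markers were measured as well. The mean of the 14 fibroblast markers was 6.02 to 6.58 in Zfp148gt/+APCMin/+ mice and 6.52 to 7.10 in controls, with all 14 lower in the former. The 15 measured macrophage and dendritic cell markers had 13 lower, with means of 5.38 to 6.16 and 5.78 to 6.39. Other stromal and immune lists were less uniform. Lower and higher in Zfp148gt/+APCMin/+ mice were 9 and 1 smooth muscle markers and 8 and 3 endothelial markers. For T and NK cell markers these counts were 9 and 5, and for B and plasma cell markers 4 and 5. With the mean of the stromal or of the immune markers as a covariate, the log2 difference of *Tradd* described below was -0.58 or -0.66 (without one, -0.59) and that of *Tnfrsf23* 0.32 or 0.34 (without one, 0.29). The interquartile range of the 33793 values on an array also differed between the groups. It was 2.77 ± 0.093 (SD, n = 6) in Zfp148gt/+APCMin/+ mice and 2.92 ± 0.0701 (SD, n = 6) in controls, with an exact permutation p = 0.0173 (two-sided, 6 and 6 mice). Of the clusters brighter than the 95th percentile of odorant receptor probes (2.74, taken as the level of genes not expected in crypts), 58.6% were lower in Zfp148gt/+APCMin/+ mice, and of the dimmer ones 67.9% were higher. The 3 arrays of lowest median correlation with the others were Zfp148gt/+APCMin/+ mice 891, 892 and 893, at 0.969, 0.967 and 0.968, where the full range was 0.967 to 0.978.

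Across the 9 measured genes, 6 had a lower mean and 3 a higher mean in Zfp148gt/+APCMin/+ crypts, and none passed limma's test after Benjamini-Hochberg adjustment over all clusters. *Tradd*, the adaptor of TNFRSF1A, had the lowest unadjusted p, with 0.663 of the control level, followed by the decoy receptor *Tnfrsf23* with 1.22 times the control level. The median log2 difference of the 9 genes was -0.10, beside 0.0196 over all clusters and -0.04 over the clusters above 2.74, and 8 of the 9 genes lie above that level. The adjusted test called 0 of 33793 clusters (0%). At an unadjusted limma p under 0.05, 1 of the 9 genes (*Tradd*) was lower, beside 2.88% of all clusters, and 1 (*Tnfrsf23*) was higher, beside 3.88% of all clusters. In numbers of clusters these were 972 lower and 1312 higher, and with each array centred on its median 1504 lower and 697 higher. Among clusters above 2.74, where *Tradd* lies, 5.11% were lower and 2.37% higher at that p. Among the dimmer ones, where *Tnfrsf23* lies, 5.35% were higher and 0.701% lower. A count of 1 among 9 genes is the smallest above 0, and nothing is read from it against these shares.

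**Figure D1:**
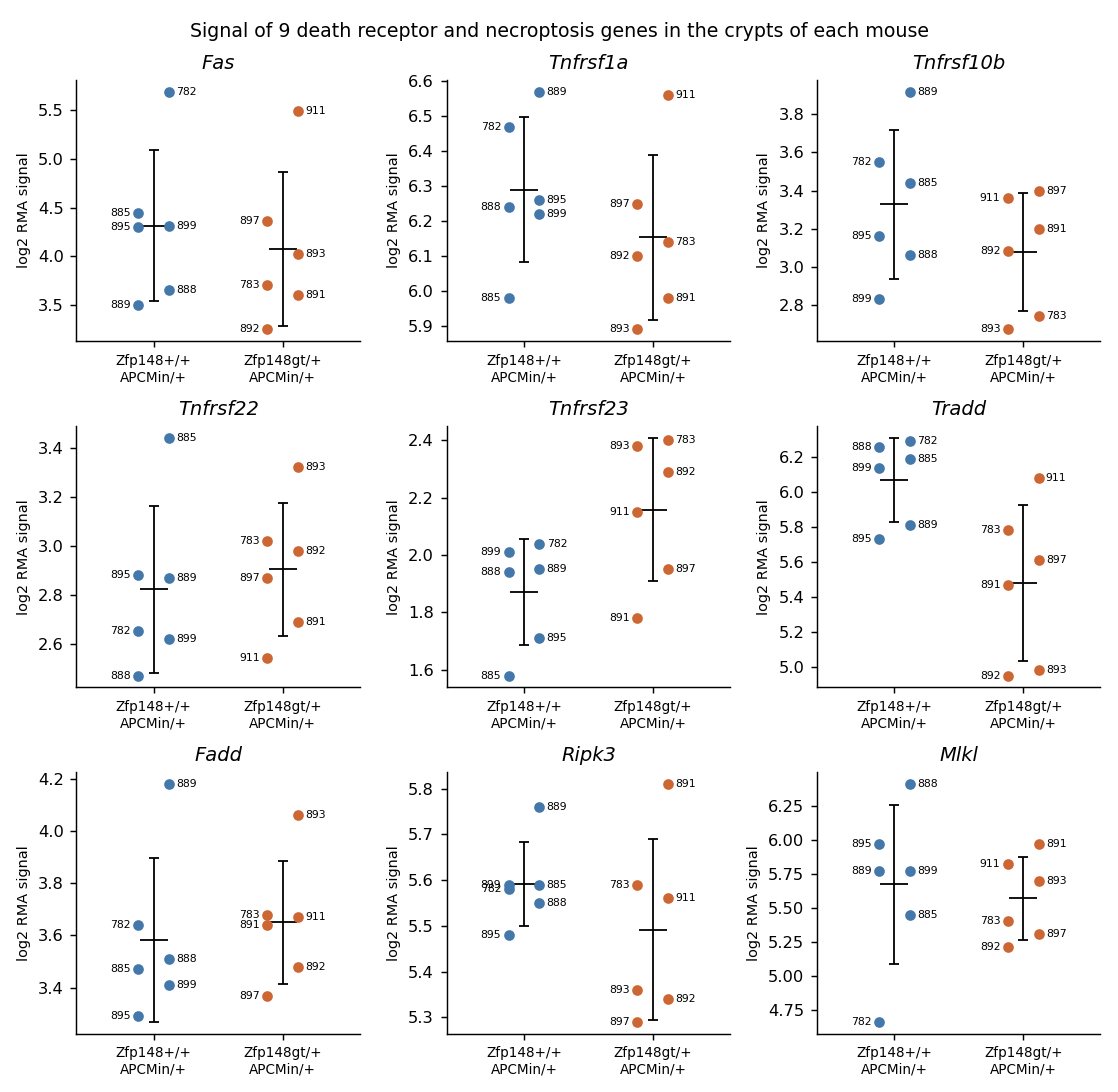
Log2 RMA signal of each of the 9 measured genes (vertical axis, own scale per panel) in each of 6 Zfp148+/+APCMin/+ (blue) and 6 Zfp148gt/+APCMin/+ mice (orange), numbered by mouse, with the mean and SD of each group as a horizontal and a vertical line. The groups overlap for all 9 genes, and the gap between means is widest relative to the spread for *Tradd* and *Tnfrsf23*.

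Among the death-domain receptors, *Fas* varied most between mice and showed no genotype difference beyond that spread. Its log2 signal was 3.50, 4.31 and 5.69 (lowest, median and highest of 6) in controls and 3.25, 3.87 and 5.49 in Zfp148gt/+APCMin/+ mice. The highest value of each group stood well above the others of its group: control mouse 782 at 5.69, with the next control at 4.44, and Zfp148gt/+APCMin/+ mouse 911 at 5.49, with the next at 4.36. The means were 4.07 ± 0.79 (SD, n = 6) in Zfp148gt/+APCMin/+ mice and 4.32 ± 0.78 (SD, n = 6) in controls. The difference of -0.24 had a 95% confidence interval of -1.11 to 0.62 (limma, adjusted p = 0.916; exact permutation p = 0.5779). In ratios the interval spans 0.464 to 1.54. Without control mouse 782 the difference was 0.03, and with array interquartile range as a covariate it was 0.90 (95% confidence interval 0.09 to 1.72, limma, unadjusted p = 0.033, adjusted p = 0.999).

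*Tnfrsf1a*, the main receptor for TNF, was less variable. Its log2 signal ran from 5.98 to 6.57 in controls with a median of 6.25, and from 5.89 to 6.56 in Zfp148gt/+APCMin/+ mice with a median of 6.12. The groups covered almost the same range, and the lowest values were those of Zfp148gt/+APCMin/+ mouse 893 (5.89) and of 2 mice at 5.98, 1 in each group. The means of 6.15 ± 0.24 (SD, n = 6) and 6.29 ± 0.21 (SD, n = 6) differed by -0.14 (95% confidence interval -0.41 to 0.14, limma, adjusted p = 0.84; exact permutation p = 0.2987). It was -0.08 without mouse 889 or mouse 893 and -0.22 without mouse 911.

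*Tnfrsf10b*, the only mouse TRAIL receptor with a death domain, had values of 2.83, 3.30 and 3.92 (lowest, median and highest) in controls and 2.67, 3.14 and 3.40 in Zfp148gt/+APCMin/+ mice. The 2 lowest mice, 893 at 2.67 and 783 at 2.74, are Zfp148gt/+APCMin/+ and the 3 highest are controls, while the other 7 are mixed. The means were 3.07 ± 0.31 (SD, n = 6) and 3.33 ± 0.39 (SD, n = 6), a ratio of 0.839 (95% confidence interval 0.634 to 1.11, limma, adjusted p = 0.8; exact permutation p = 0.2424). On the log2 scale the difference was -0.25, and without control mouse 889 it was -0.14. In these dissected samples, as in any bulk tissue, fewer cells of a type and less RNA per cell cannot be told apart.

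Of the decoy receptors, *Tnfrsf23* had a higher and *Tnfrsf22* a similar mean in Zfp148gt/+APCMin/+ crypts. *Tnfrsf23* signal was 2.40, 1.78, 2.29, 2.38, 1.95 and 2.15 in Zfp148gt/+APCMin/+ mice 783, 891, 892, 893, 897 and 911, and 2.04, 1.58, 1.94, 1.95, 1.71 and 2.01 in control mice 782, 885, 888, 889, 895 and 899. In 4 of the 6 Zfp148gt/+APCMin/+ mice the value lay above every control, and the other 2 lay within the control range. The means were 2.16 ± 0.25 (SD, n = 6) and 1.87 ± 0.18 (SD, n = 6), a difference of 0.29 (95% confidence interval 0.01 to 0.56). The limma p before adjustment was 0.0421 and the adjusted one 0.735, and the exact permutation p was 0.0498. With mice left out 1 at a time the difference was 0.23 to 0.36, and with array interquartile range as a covariate 0.33 (95% confidence interval -0.08 to 0.74). *Tnfrsf23* is the only one of the 9 genes whose mean lies below 2.74, the odorant receptor level, and in that range 67.9% of clusters were higher in Zfp148gt/+APCMin/+ mice.

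*Tnfrsf22* had values of 2.47, 2.76 and 3.44 (lowest, median and highest) in controls and 2.54, 2.93 and 3.32 in Zfp148gt/+APCMin/+ mice. The groups overlapped over almost their whole range, with control mouse 885 the highest and control mouse 888 the lowest of all. The means of 2.90 ± 0.27 (SD, n = 6) and 2.82 ± 0.34 (SD, n = 6) differed by 0.08 (95% confidence interval -0.28 to 0.45, limma, adjusted p = 0.933; exact permutation p = 0.6429). It was 9.45e-05 without mouse 893 and 0.21 without mouse 885.

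*Tnfrsf26*, which lies next to *Tnfrsf22* on chromosome 7 in RefSeq and encodes a further mouse receptor of this family, had a higher mean in Zfp148gt/+APCMin/+ crypts. Its log2 signal was 3.15 ± 0.61 (SD, n = 6) in Zfp148gt/+APCMin/+ mice and 2.59 ± 0.29 (SD, n = 6) in controls, a difference of 0.56 (95% confidence interval 0.03 to 1.09, exact permutation p = 0.0433, limma, adjusted p = 0.731). In 3 of the 6 Zfp148gt/+APCMin/+ mice it lay above every control. The *Tnfrsf26* mean over all 12 mice, 2.87, was close to 2.74, the odorant receptor level, and the control mean lay below that level. Of the clusters dimmer than 2.74, 67.9% were higher in Zfp148gt/+APCMin/+ mice. With mouse 897 left out the difference was 0.33, with mouse 911 left out 0.70, and with array interquartile range as a covariate 0.30 (95% confidence interval -0.47 to 1.07). The receptors of this cluster are similar in sequence, and whether their probes detect each other's transcripts was not tested.

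Of the adaptors, *Tradd* had a lower mean and *Fadd* a similar mean in Zfp148gt/+APCMin/+ crypts. The 6 controls had *Tradd* signals of 6.29 (mouse 782), 6.19 (885), 6.26 (888), 5.81 (889), 5.73 (895) and 6.14 (899). The 6 Zfp148gt/+APCMin/+ mice had signals of 5.78 (mouse 783), 5.47 (891), 4.95 (892), 4.98 (893), 5.61 (897) and 6.08 (911). Mice 892 and 893 were far below all others, mouse 911 was among the controls, and controls 889 and 895 lay next to mouse 783. The means of 5.48 ± 0.45 (SD, n = 6) and 6.07 ± 0.24 (SD, n = 6) differed by -0.59 (95% confidence interval -1.01 to -0.18). The unadjusted limma p was 0.00839, the exact permutation p 0.0152 and the adjusted limma p 0.725.

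*Tradd* was lower on arrays with a narrower spread of signals, a relation that did not pass adjustment. How many other clusters relate to that spread in this way was not tested. Over the 12 mice, with the genotype means removed, the interquartile range and *Tradd* had a Pearson r of 0.81 (permutation p = 0.00173). The Spearman rho was 0.81 (permutation p = 0.00323). Mice 889 and 911 had the interquartile ranges farthest out once the genotype means were removed, and without them r was 0.74. That step kept mice 891, 892 and 893. The adjusted p over 36 such relations between the 9 genes and 4 array measures was 0.0623. *Fas* had an r of 0.79 (permutation p = 0.00394, adjusted p = 0.0709) and a rho of 0.64 (permutation p = 0.0336), with r at 0.58 without mice 889 and 911. These relations were added after values had been seen. With the interquartile range as covariate, the *Tradd* difference was -0.05 (95% confidence interval -0.45 to 0.35), and without mice 891, 892 and 893 it was -0.25 (95% confidence interval -0.61 to 0.11). Across mice left out 1 at a time it stayed between -0.71 and -0.49. The interquartile range itself differed between the groups, and mice 891, 892 and 893 are all Zfp148gt/+APCMin/+. Array spread and genotype therefore cannot be told apart by these fits.

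**Figure D2:**
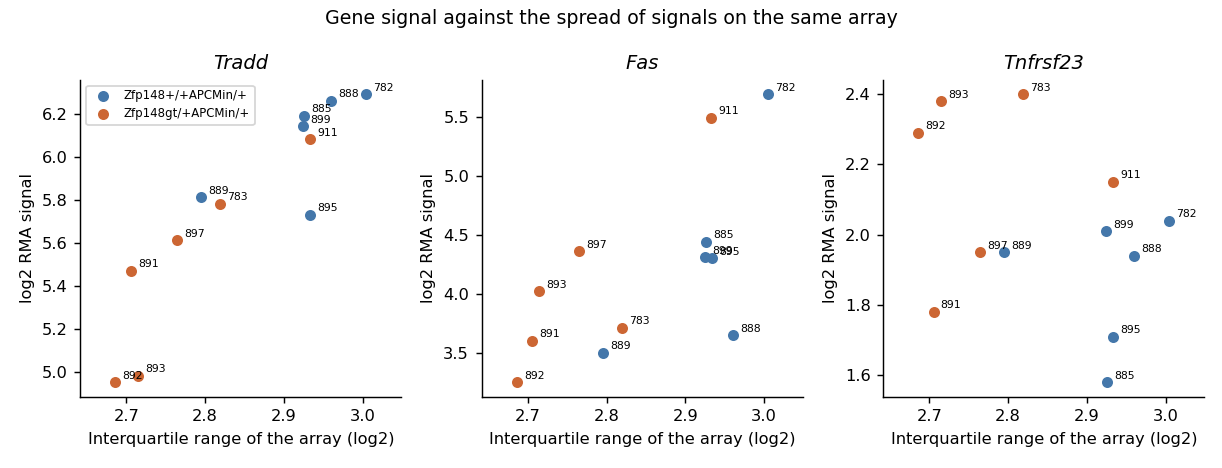
Log2 RMA signal of *Tradd*, *Fas* and *Tnfrsf23* (vertical axes) against the interquartile range of all 33793 log2 values on the same array (horizontal axes), 1 point per mouse, Zfp148+/+APCMin/+ in blue and Zfp148gt/+APCMin/+ in orange. *Tradd* is lowest in mice 892 and 893, at 4.95 and 4.98. The narrowest arrays are those of mice 892 (2.686), 891 (2.705) and 893 (2.715), and *Tradd* in mouse 891 is at 5.47.

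*Fadd*, the adaptor that links FAS and TNFRSF10B to caspase-8, had values of 3.29, 3.49 and 4.18 (lowest, median and highest) in controls and 3.37, 3.66 and 4.06 in Zfp148gt/+APCMin/+ mice. Control mouse 889 and Zfp148gt/+APCMin/+ mouse 893 were the highest, and the other 10 mice lay between 3.29 and 3.68 in both groups. The means of 3.65 ± 0.24 (SD, n = 6) and 3.58 ± 0.32 (SD, n = 6) differed by 0.07 (95% confidence interval -0.26 to 0.40, limma, adjusted p = 0.942; exact permutation p = 0.6407). *Casp8*, the protease recruited by FADD, differed by -0.09 (95% confidence interval -0.51 to 0.32) and its inhibitor *Cflar* by -0.15 (95% confidence interval -0.42 to 0.11), and both were named after their values had been seen. With array interquartile range as a covariate they were at 0.31 and 0.07, and *Casp8* was at 0.02 without mouse 892 and at 0.02 with the immune marker mean as a covariate.

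In the necroptosis kinase and effector the means were close. *Ripk3* signal was 5.48, 5.58 and 5.76 (lowest, median and highest) in controls and 5.29, 5.46 and 5.81 in Zfp148gt/+APCMin/+ mice. The control values were tight, and the Zfp148gt/+APCMin/+ mice fell on both sides of them, 892, 893 and 897 below every control and 891 above every control. The means of 5.49 ± 0.20 (SD, n = 6) and 5.59 ± 0.09 (SD, n = 6) differed by -0.10 (95% confidence interval -0.32 to 0.12, limma, adjusted p = 0.85; exact permutation p = 0.3247). The interval allows ratios of 0.803 to 1.08. The difference was -0.16 without mouse 891 and -0.06 without mouse 897.

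*Mlkl* was more variable, in controls above all. Its values were 4.66, 5.77 and 6.41 (lowest, median and highest) in controls, from mice 782 and 888, and 5.21, 5.55 and 5.97 in Zfp148gt/+APCMin/+ mice, all of which lay within the control range. The means of 5.57 ± 0.30 (SD, n = 6) and 5.67 ± 0.59 (SD, n = 6) differed by -0.10 (95% confidence interval -0.63 to 0.42, limma, adjusted p = 0.945; exact permutation p = 0.7121). Without control mouse 888, the difference was 0.04.

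**Figure D3:**
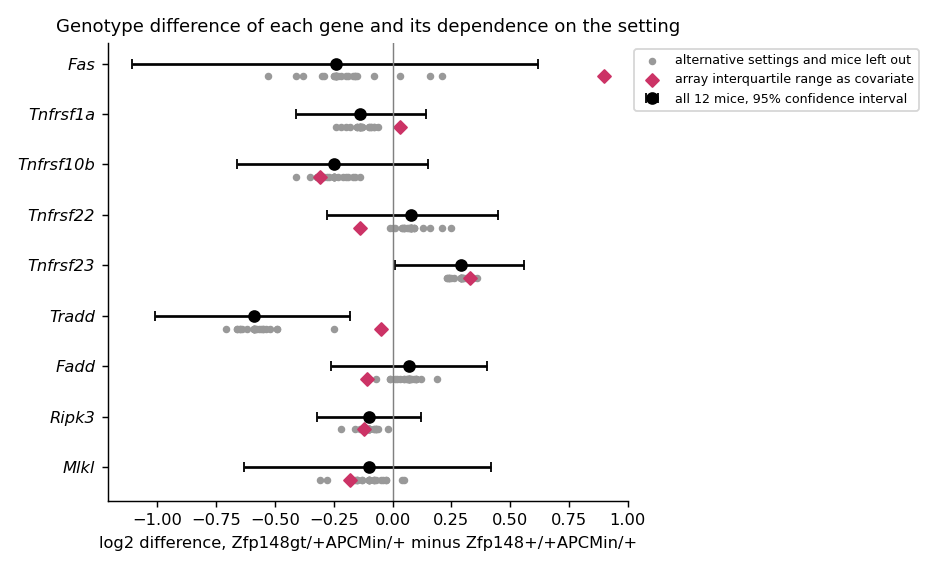
Log2 difference of each gene, Zfp148gt/+APCMin/+ minus Zfp148+/+APCMin/+ (horizontal axis), in all 12 mice with its 95% confidence interval (black), under the other settings and with mice left out (grey), and with the array interquartile range as covariate (diamonds). Only the *Tradd* and *Tnfrsf23* intervals exclude 0, and with that covariate *Tradd* was at -0.05 and *Fas* at 0.90. The covariate differed between the groups, so the fit with it cannot tell array spread from genotype.

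No pair of the 9 genes had a correlation among mice of a genotype that passed adjustment. Over the 36 pairs, Pearson r of deviations from the genotype means ran from -0.60 to 0.59 with a median of -0.01, and the smallest adjusted permutation p was 0.657. *Tradd* and *Fas* had an r of 0.58 (permutation p = 0.0547, adjusted p = 0.657), a rho of 0.57 (permutation p = 0.0793) and an r of 0.58 without the 2 farthest mice. Against the mean of each of 8 pathway lists (72 relations, also added after values had been seen), the smallest adjusted permutation p was 0.0878, shared by 3 relations. *Tnfrsf22* had an r of -0.78 with the list of necroptosis partners (permutation p = 0.00366, adjusted p = 0.0878), a rho of -0.85 (permutation p = 0.0009) and an r of -0.73 without the 2 farthest mice. *Tnfrsf23* had an r of 0.73 with the death effector genes (permutation p = 0.00334, adjusted p = 0.0878), a rho of 0.79 (permutation p = 0.00605) and an r of 0.69 without the 2 farthest mice. That list holds the inhibitor *Cflar* beside *Casp8*, so its mean is no measure of death signalling. The mean of *Tnfrsf22* over all mice, 2.86, is close to the odorant receptor level of 2.74, and that of *Tnfrsf23*, 2.01, lies below it. Whether their signals rise above background was not tested. *Mlkl* had an r of 0.73 with the list of NF-κB target genes (permutation p = 0.00366, adjusted p = 0.0878), a rho of 0.76 (permutation p = 0.0086) and an r of 0.56 without the 2 farthest mice. With the interferon-induced genes it had an r of 0.72 (permutation p = 0.0689, adjusted p = 0.774), a rho of 0.71 (permutation p = 0.0153) and an r of 0.68 without the 2 mice farthest out on that list.

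**Figure D4:**
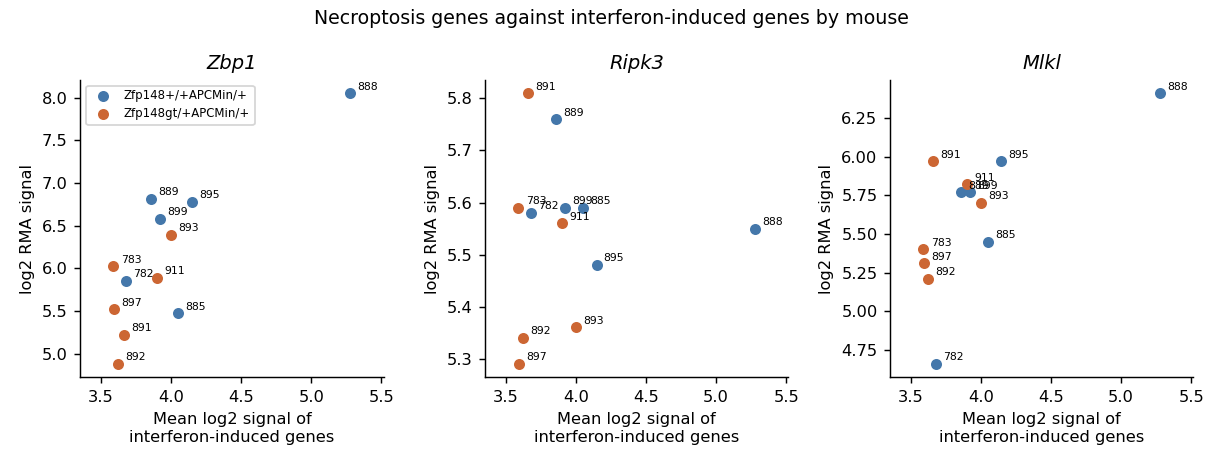
Log2 RMA signal of *Zbp1*, *Ripk3* and *Mlkl* (vertical axes) against the mean log2 signal of 16 measured interferon-induced genes, a list that holds *Zbp1* (horizontal axes), 1 point per mouse, Zfp148+/+APCMin/+ in blue and Zfp148gt/+APCMin/+ in orange. Control mouse 888, at 5.28 on the horizontal axis, is the highest for *Zbp1* (8.05) and for *Mlkl* (6.41).

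Other genes were taken as a list of necroptosis partners, and none of them passed the adjusted test. Whether each of them, such as *Parp1* or *Gsdmd*, acts with RIPK3 and MLKL was not tested. Of 12 measured genes on the list, 8 were lower and 4 higher, with a median of -0.17, and an unadjusted p under 0.05 was reached by 3 of the lower genes and 1 of the higher. All 12 lie above 2.74, where 5.11% of clusters were lower and 2.37% higher at that p. *Zbp1*, which senses Z-form nucleic acid and activates RIPK3, was 5.65 ± 0.55 (SD, n = 6) in Zfp148gt/+APCMin/+ mice and 6.59 ± 0.90 (SD, n = 6) in controls, a difference of -0.94 (95% confidence interval -1.76 to -0.12, limma, p = 0.0285, adjusted p = 0.725; exact permutation p = 0.0519). Its highest value, 8.05, was that of control mouse 888, and without that mouse the difference was -0.65. *Pgam5* (a mitochondrial phosphatase) differed by -0.61 (95% confidence interval -1.06 to -0.17, exact permutation p = 0.0281), in 5 of 6 Zfp148gt/+APCMin/+ mice below every control. *Ppm1b*, a phosphatase known to act on RIPK3, differed by -0.39 (exact permutation p = 0.0476), and *Parp1*, a DNA repair enzyme, by 0.29 (exact permutation p = 0.0411). With the interquartile range as covariate, *Pgam5* was at -0.35 (95% confidence interval -0.98 to 0.28) and *Ppm1b* at 0.08 (95% confidence interval -0.18 to 0.35).

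The interferon-induced genes, of which *Zbp1* is one, had the most negative median of the 8 pathway lists, at -0.50, with 13 of 16 measured genes lower, 4 of them at an unadjusted p under 0.05, and 3 higher. Of all clusters 2.88% were lower at that p, and of those above 2.74, where 12 of the 16 lie, 5.11%, with 58.6% of the latter lower at any p. *Ddx58*, a sensor of viral RNA (RIG-I), was at 4.58 ± 0.25 (SD, n = 6) in Zfp148gt/+APCMin/+ mice and 5.18 ± 0.28 (SD, n = 6) in controls, with all 6 of the former below every control (difference -0.60, limma p = 0.00137, adjusted p = 0.705; exact permutation p = 0.0022, the smallest that 6 against 6 mice allow). *Ifih1* (MDA5), a second such sensor, differed by -0.48 (95% confidence interval -0.81 to -0.15, exact permutation p = 0.0108) and *Oasl2* by -1.02 (95% confidence interval -1.90 to -0.13, exact permutation p = 0.0130). The list mean was 3.73 ± 0.18 (SD, n = 6) in Zfp148gt/+APCMin/+ mice and 4.16 ± 0.57 (SD, n = 6) in controls, where mouse 888 stood highest at 5.28, and without that mouse *Oasl2* was at -0.59. The immune marker mean was 5.08 ± 0.236 (SD, n = 6) and 5.25 ± 0.234 (SD, n = 6), with an exact permutation p = 0.2208, and with that mean as a covariate *Zbp1* was at -0.63, *Ddx58* at -0.55 and *Ifih1* at -0.44. With array interquartile range as a covariate, *Ddx58* was at -0.40 (95% confidence interval -0.84 to 0.05).

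**Figure D5:**
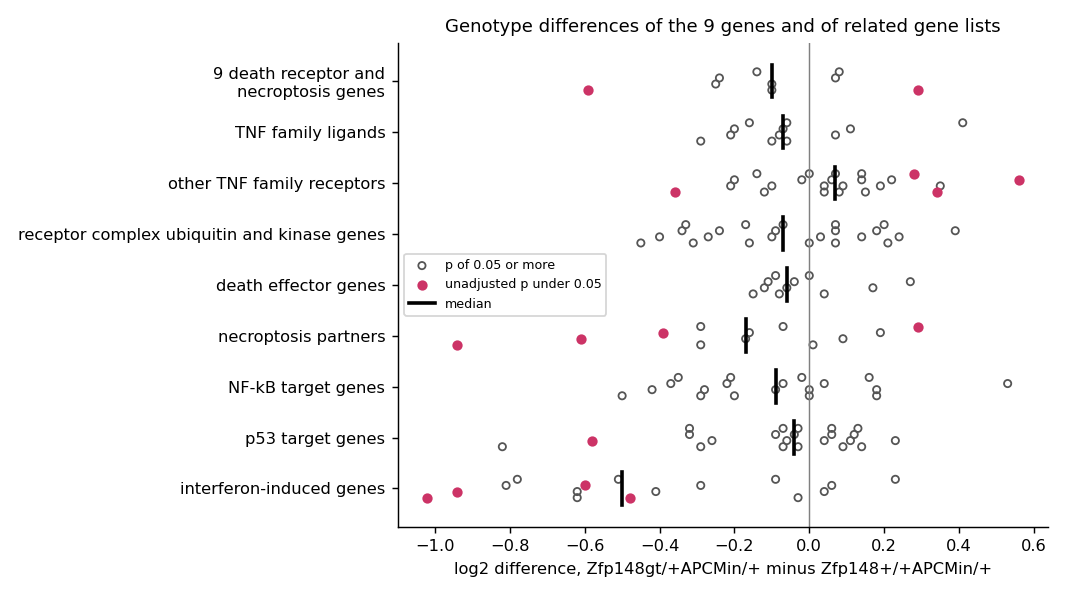
Log2 differences, Zfp148gt/+APCMin/+ minus Zfp148+/+APCMin/+ (horizontal axis), of the 9 genes and of each measured gene of 8 pathway lists, 1 circle per gene, filled at an unadjusted limma p under 0.05, with the list medians as bars. The interferon-induced genes have the median farthest from 0, at -0.50, and no gene passed the adjusted test.

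The medians of the other lists lay between -0.09 and 0.07. Of the TNF family ligands, 3 of 12 measured were higher and 9 lower (median -0.07), and none passed at an unadjusted p under 0.05. The 2 of smallest p were *Tnf* (-0.21, exact permutation p = 0.2251) and *Tnfsf10*, which encodes TRAIL (-0.29, exact permutation p = 0.3052). Leaving out 1 mouse moved *Tnf* to between -0.35 (mouse 893) and -0.12 (mouse 897), and *Tnfsf10* to between -0.44 (mouse 885) and -0.15 (mouse 897). Of 23 other TNF family receptors, 16 were higher and 7 lower (median 0.07). Of the ligands 6 of 12, and of these receptors 13 of 23, lie above 2.74. Of all clusters above that level 58.6% were lower, and of the dimmer ones 67.9% were higher. At an unadjusted p under 0.05, 2.37% of the brighter clusters were higher and 5.11% lower. Of the dimmer clusters 5.35% were higher and 0.701% lower at that p. Besides *Tnfrsf26*, the receptors at an unadjusted p under 0.05 were *Tnfrsf9* (a T cell co-stimulator, 0.28, exact permutation p = 0.0325), *Tnfrsf13c* (the BAFF receptor of B cells, 0.34, exact permutation p = 0.0303) and *Tnfrsf11a* (RANK, -0.36, exact permutation p = 0.0325). *Tnfrsf9* has a mean below 2.74, and *Tnfrsf13c* was at 0.22 without mouse 895.

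The list of receptor complex genes, which holds ubiquitin ligases, deubiquitinases, kinases and adaptors, had 10 higher and 13 lower of 23 measured. Its median was -0.07, and none of its genes was at an unadjusted p under 0.05. Whether each of them acts at TNFRSF1A was not tested. *Tbk1*, an IKK-related kinase, had the smallest p (-0.31, exact permutation p = 0.1104), followed by the deubiquitinase *Cyld* (-0.45, exact permutation p = 0.1104). The death effector genes had 4 higher and 7 lower of 11, with a median of -0.06 and none at that p, *Dap* (0.27, exact permutation p = 0.1580) and the BH3-only gene *Bid* (0.17, exact permutation p = 0.1494) being the 2 of smallest p. *Bid* was at 0.11 without mouse 893. Of the receptor complex genes 22 of 23, and of the death effector genes 10 of 11, lie above 2.74, where 58.6% of clusters were lower.

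The NF-κB targets, 19 of them measured, had 5 above and 14 below the control mean (median -0.09) and none at an unadjusted p under 0.05. *Nfkbie*, an inhibitor of NF-κB, had the smallest p (-0.37, exact permutation p = 0.0519), and the immediate early gene *Ier3* followed (0.53, exact permutation p = 0.1558). *Nfkbie* was at -0.22 without mouse 889 and at -0.68 with array interquartile range as a covariate, and *Ier3* at 0.31 without mouse 891 and 0.18 with the stromal covariate. The p53 targets had 9 above and 13 below of 22 (median -0.04), and the 1 at that p was *Polk*, a translesion DNA polymerase (-0.58, exact permutation p = 0.0130). Of the NF-κB targets 16 of 19, and of the p53 targets 20 of 22, lie above 2.74. Of all clusters above that level 58.6% were lower, and 5.11% were lower at an unadjusted p under 0.05. *Fas* and *Tnfrsf10b*, themselves p53 targets, are counted among the 9 genes.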

How the data were processed

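The authors normalized the arrays by RMA in Affymetrix Expression Console, and the deposited values, 1 per transcript cluster and mouse, were read as log2 from their range of 0.85 to 13.24; ratios rest on that reading. RMA draws all arrays onto similar value distributions, so that values are relative within an array. The genome build and the versions of Expression Console and RMA were not given in any source used here. Of 33793 clusters, 23521 carried 1 symbol, 1820 several and 8452 none. The number of mice limits the precision (median SD among mice of 1 genotype, 0.243).

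Genotypes, taken from the labels, were compared in R 4.3.3 with limma 3.58.1 (lmFit, eBayes) over all clusters, with Benjamini-Hochberg adjustment over all of them and a threshold of 0.05, after the authors' methods, and for single genes with two-sided exact permutation tests over the 924 assignments of mice to groups. Relations across mice were tested by permutation within genotypes. The limma script was tested on simulated data. The genes, the pathway and marker lists (260 of 282 entries measured), the tests and the alternatives were chosen with earlier results of these data known. Named were all genes chosen, *Zfp148*, and in each pathway list the genes at an unadjusted p under 0.05 or else the 2 of smallest p. Outside this rule, *Casp8* and *Cflar* were added with their values in view. Alternatives were other centring and normalization, filters on dim clusters, other variance models and weights, covariates for array spread and for stromal, immune and villus genes, other adjustments, the methods' t-test and each mouse left out. Leaving out the 3 arrays of lowest correlation was chosen after seeing the data. Litters were unknown, so mice were treated as independent.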

Additional observations from a re-analysis of the deposited data

How the results depend on the processing

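None of the 9 genes passed the adjusted test under any alternative or with any mouse left out. The count at an unadjusted p under 0.05 with a lower mean (1, *Tradd*) was 0 with the array interquartile range as covariate and 0 without mice 891, 892 and 893, and 1 with any single mouse left out. The count with a higher mean (1, *Tnfrsf23*) was 0 without those 3 mice, with each array centred on its median, after quantile normalization once more, under both filters on dim clusters (which remove *Tnfrsf23* by construction), and with the stromal or villus covariate; it was 0 to 1 over single mice left out. With the interquartile range as covariate *Tnfrsf23* also missed that p, and the count stayed at 1 through *Fas*. It was 0 without control mouse 885, 888 or 895 and without Zfp148gt/+APCMin/+ mouse 783, 892, 893 or 911. The median of the 9 genes was -0.22 to -0.01 over the alternatives.

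The direction turned for *Fas* (0.21 without the 3 mice, 0.90 with the interquartile range, 0.16 with the stromal covariate, 0.03 without mouse 782), *Tnfrsf1a* (0.03 and 0.03 under the first 2), *Tnfrsf22* (-0.01 and -0.14), *Fadd* (-0.01, -0.11, -0.07 with the stromal covariate, -0.01 without mouse 893) and *Mlkl* (0.05 with the immune covariate, 0.04 without mouse 888). Over single mice left out, *Fas* was -0.53 (without mouse 911) to 0.03, *Fadd* -0.01 to 0.19 (without mouse 889) and *Mlkl* -0.31 (without mouse 782) to 0.04. The cause was not tested. *Tradd*, *Tnfrsf23*, *Tnfrsf10b* and *Ripk3* kept their direction under every alternative that gave a value. No analysis paired by litter was possible because the litters of the mice were not known here.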
